A study of Oryza sativa with 16 samples.

Results

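The cold time course of rice seedlings was described from the open chromatin peaks found after 12 h and after 24 h at 4 °C. FAIRE-seq, in which formaldehyde is used to isolate regulatory elements, crosslinks protein to DNA, shears the chromatin and sequences the DNA that phenol-chloroform extraction recovers free of protein, so that stretches with many reads, called peaks, mark open chromatin. All peaks of both cold lists entered, which gave 110010 peaks at 12 h and 102210 at 24 h, together 212220 of the 695463 peaks in the 7 lists of the series. A 12 h peak that overlapped at least 1 bp of a 24 h peak was counted as persisting, a 12 h peak without such an overlap as closed, and a 24 h peak without a 12 h partner as new. These words describe peak calls, and a missing call does not show that a site was fully closed.

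The seedlings were 14-day-old whole plants of *Oryza sativa* Japonica, cultivar Nipponbare, grown at 28 °C. Groups were control seedlings kept at 28 °C, seedlings at 4 °C for 12 h or 24 h, seedlings at 42 °C for 30 min or 3 h, and seedlings given 250 mM NaCl for 2 h or 6 h, each with 2 FAIRE-seq replicates. One peak list was deposited per condition, so the spread between replicates could not be computed, no difference between time points has a replicate check, and no p-value was computed. A single control group served both time points, so the duration of cold and the time of harvest cannot be told apart. All intervals are 95% Wilson intervals, which cover counting error only. The peak lists hold no read totals, and the numbers of mapped reads given with the paper were not used here.

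Open chromatin is DNA with few or displaced nucleosomes, where transcription factors and the transcription machinery can bind, and it is found above all at active promoters and enhancers. Rice is a chilling-sensitive plant. The early response to cold, first worked out in Arabidopsis, runs through ICE proteins, which activate genes of the DREB transcription factors, and these bind a short promoter element of many cold-induced genes. Which genes lie beside the peaks described here was not analysed, because no gene annotation of the peaks' genome build, IRGSP 1.0, was used.

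Peaks covered 96.2 Mb at 12 h and 85.3 Mb at 24 h. The median peak was 676 bp wide at 12 h, with quartiles of 378 and 1169 bp, and 653 bp wide at 24 h, with quartiles of 363 and 1108 bp. MACS2, the peak caller, gives each peak a fold enrichment of reads over the local background. Its median was 1.93 at 12 h and 2.38 at 24 h. The 12 h list had the lowest median of all lists, with the other 6 running from 2.15 to 3.00, and it also held the most peaks. The part of this lower enrichment in the differences between 12 h and 24 h was not tested. Fold enrichment is therefore compared below only within a list.

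Most open chromatin of the 12 h seedlings was also called at 24 h. Of the 110010 peaks at 12 h, 93691 (85.2%) persisted and 16319 closed, a share of 14.8% with an interval from 14.6% to 15.0%. Of the 102210 peaks at 24 h, 7258 were new, which is 7.10% with an interval from 6.95% to 7.26%. Closed peaks thus outnumbered new peaks 2.25 to 1. The gap depended on the lengths of the lists. When both lists were cut to their 102210 most enriched peaks, 12.3% of the 12 h peaks had no 24 h partner and 10.7% of the 24 h peaks no 12 h partner. With lists of equal length, closed and new counts can differ only by the difference in persisting peaks. Close shares are then built in, so this cut does not test the gap.

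Few peaks lay near the limit of 1 bp. Only 24 closed peaks ended within 100 bp of a 24 h peak, and 15 new peaks lay as close to a 12 h peak. On the other side of the limit, 48 persisting 12 h peaks were matched by 50 bp or less. The median gap from a closed peak to the nearest 24 h peak was 1023 bp, and from a new peak to the nearest 12 h peak 1009.5 bp. Within each list no peaks were less than 401 bp apart, and 399 closed peaks (2.45%) and 240 new peaks (3.31%) lay within 400 bp of a peak of the other list.

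Closed and new peaks were the narrow and weak peaks of their lists. Closed peaks had a median width of 327 bp, with quartiles of 238 and 523 bp, against 767 bp for the persisting 12 h peaks. New peaks had a median width of 265 bp, with quartiles of 216 and 406 bp, against 695 bp for the other 24 h peaks. Ranked by fold enrichment within its own list, the median closed peak stood at percentile 19.1 and the median new peak at percentile 15.4. The median persisting peak stood at percentile 56.2 at 12 h and at 53.2 at 24 h.

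**Figure D1:**
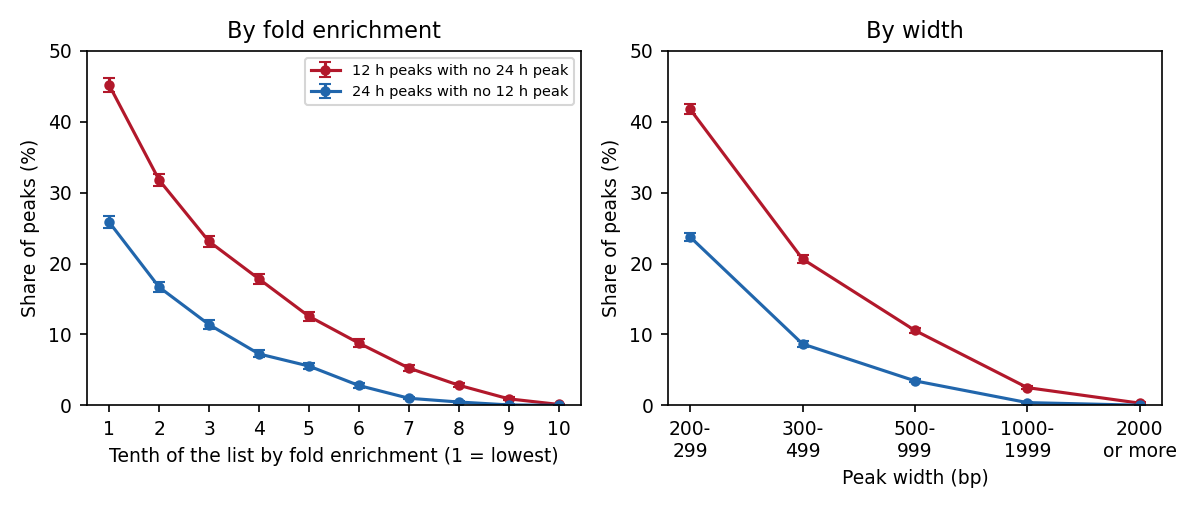
Share of 12 h peaks with no 24 h peak (red) and of 24 h peaks with no 12 h peak (blue), in percent, by class of fold enrichment within the list (left, 10 classes of equal size) and by peak width in bp (right), with 95% Wilson intervals. Both shares fell with each step of enrichment and width, from 45.2% to 0.127% for 12 h peaks over the classes of enrichment.

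The shares fell steadily over 10 classes of equal size by fold enrichment. In the weakest class 45.2% of the 12 h peaks closed, in class 5 12.6%, and in the strongest class 14 of 11001 peaks (0.127%). At 24 h, 25.8% of the weakest class were new, 5.54% of class 5 and 6 of 10222 peaks in class 9. No peak of the strongest class was new, 0 of 10221. A limit of 3 counts of the total allows a share of up to 0.0294%, and the Wilson interval reaches 0.0376%. Width gave the same order. A wider peak has more room to meet 1 bp of another peak, and the part of this in the fall with width was not tested. Between 200 and 299 bp, 41.7% of the 12 h peaks closed and 23.7% of the 24 h peaks were new. From 2000 bp upwards, 24 of 7810 peaks closed and 1 of 6040 was new.

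The strongest closed peaks can be named by position, given here on IRGSP 1.0. The peak chr9:1863509-1863903 had a fold enrichment of 2.82 at 12 h, at percentile 94.7 of its list, and the nearest 24 h peak was 771 bp away. It had a partner in the heat 3 h list and in no other list outside the cold. The peak chr1:18683114-18683454 followed with 2.79. It overlapped a peak of the control, both heat lists and salt 2 h. The peaks chr9:12609011-12609305, chr11:7886539-7886919 and chr11:19617360-19617716 had a fold enrichment of 2.76, 2.76 and 2.69. All 5 were between 295 and 395 bp wide, and 2 of the 5 had a control peak, against 13.4% of all closed peaks.

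The 5 strongest new peaks all had a control peak, against 62.7% of all new peaks. The peak chr7:26506216-26506519 had a fold enrichment of 3.44 at 24 h, at percentile 89.6, with the nearest 12 h peak 1419 bp away. The peaks chr3:8317820-8318032 and chr5:22906719-22906988 had values of 3.38 and 3.37. The peaks chr8:15993382-15993613 and chr7:17217960-17218166 had 3.11 and 3.07. These 5 peaks were 207 to 304 bp wide. They also had a partner in the salt 2 h list, against 70.6% of all new peaks. In salt 6 h 4 of the 5 had one, against 61.9% of all new peaks.

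Closed and new peaks occurred on all 12 chromosomes, and closed peaks were the more numerous on each. With equal numbers of peaks in both lists, new peaks outnumbered closed peaks on chromosome 3, by 1210 to 1205, and on chromosome 4, by 1091 to 988. The closed share was lowest on chromosome 4, with 13.4% (1310 of 9746 peaks), and highest on chromosome 12, with 17.4% (1218 of 7013 peaks). The intervals of chromosomes 11 and 12 lay above the genome-wide 14.8%, and those of chromosomes 1, 3 and 4 below it. The interval of the other 7 chromosomes included it. The new share ran from 5.94% on chromosome 1 (747 of 12569) to 8.50% on chromosome 12 (547 of 6432). The intervals of chromosomes 6, 10, 11 and 12 lay above the genome-wide 7.10%, and those of chromosomes 1 and 3 below. Chromosome 4 combined the lowest closed share with a new share of 7.28%, so that it had the lowest ratio of closed to new peaks, 1.94, while chromosome 1 had the highest with 2.55. Over the 12 chromosomes, which share the same libraries, the closed and new shares had a Spearman rho of 0.67.

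**Figure D2:**
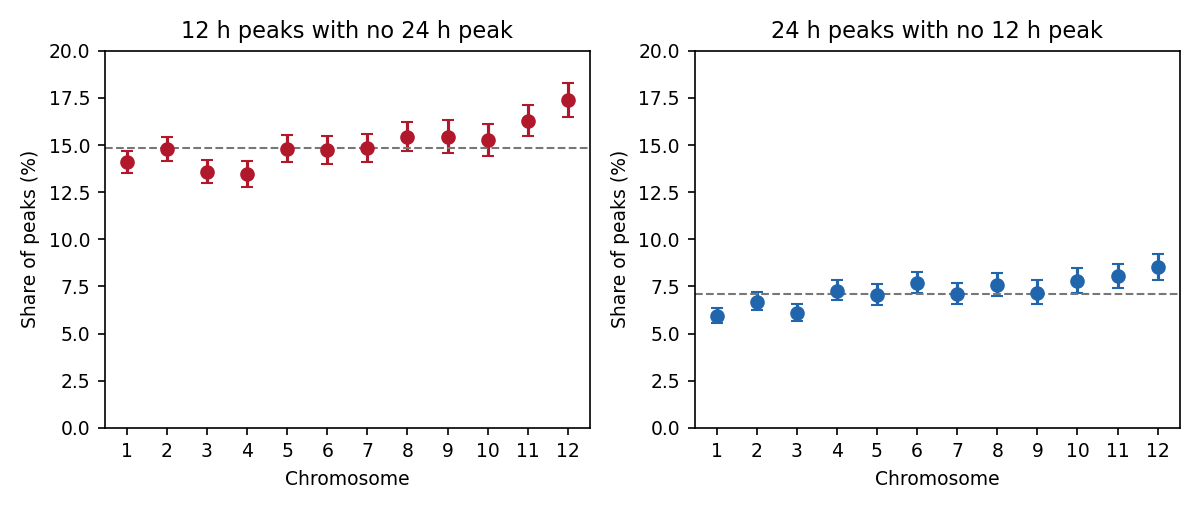
Share of 12 h peaks with no 24 h peak (left) and of 24 h peaks with no 12 h peak (right), in percent, for each of the 12 chromosomes, with 95% Wilson intervals and the genome-wide share as a dashed line. The closed share ran from 13.4% on chromosome 4 to 17.4% on chromosome 12, and the new share from 5.94% on chromosome 1 to 8.50% on chromosome 12.

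The order of the chromosomes depended on the set of peaks. Where lists were cut, a closed or new peak is one without a partner in the other cut list, whatever the full list holds. When only the 20000 most enriched peaks of either list were kept, chromosome 12 had the lowest closed share of the 12 chromosomes, and chromosome 9 the highest. In the other 6 settings, the one reported above included, its closed share was the highest. Its new share was the highest in 5 of the 7 settings. With equal numbers of peaks chromosome 4 had the highest new share, 11.8%, and among the 20000 most enriched peaks chromosome 2, with 33.5%. The lowest closed share was on chromosome 3 with equal numbers of peaks, and also when peaks below a −log10 q of 2 were dropped. The lowest new share was on chromosome 11 among the 20000 most enriched peaks, and on chromosome 3 when peaks less than 1000 bp apart were joined.

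Windows of 1 Mb showed a wider range. Over the 378 windows with at least 50 peaks in both lists, the closed share had a median of 14.7% and quartiles of 12.7% and 16.8%. New peaks had a median share of 6.79% there, with quartiles of 5.52% and 8.59%. The highest closed share, 26.7%, was in the window from 19 to 20 Mb of chromosome 12, where 73 of 273 peaks closed. Of these 73, 7 had a control peak, against 13.4% of all closed peaks. The neighbouring window from 18 to 19 Mb had a closed share of 24.9% (49 of 197). Windows over 20% numbered 20, of which 5 were on chromosome 12 and 4 on chromosome 11. The lowest closed shares were 1 of 55 peaks in the window from 23 to 24 Mb of chromosome 10, where the last peak of any list ends at 23204331, 7.80% (23 of 295) from 32 to 33 Mb of chromosome 4 and 7.95% (26 of 327) from 9 to 10 Mb of chromosome 3.

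New peaks made up the largest share, 20.1% (30 of 149), between 6 and 7 Mb of chromosome 12. The window from 2 to 3 Mb of chromosome 4 was high in both directions, with 43 of 164 peaks closed (26.2%) and 24 of 149 new (16.1%), and the next window of chromosome 4 had 30 of 192 new (15.6%). Of these 30, 24 and 30 new peaks, 18, 19 and 20 had a control peak, against 62.7% of all new peaks. The lowest new shares were 2.54% (3 of 118) from 28 to 29 Mb of chromosome 8, 2.82% (9 of 319) from 5 to 6 Mb of chromosome 3 and 2.92% (9 of 308) from 25 to 26 Mb of chromosome 4. Across the 378 windows the closed and new shares were unrelated, with a Spearman rho of 0.00011, while the new share was higher in windows with fewer 24 h peaks (rho of -0.46). The windows share the same libraries, and the number of peaks is also the denominator of the new share. More peaks closed than appeared in 360 of the 378 windows.

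Closed peaks more often had a closed neighbour. The next 12 h peak along the chromosome closed after 19.9% of the closed peaks, with an interval from 19.3% to 20.5%, and after 14.0% of the persisting peaks. For new peaks these shares were 11.3% and 6.78%. The longest run of neighbouring peaks that all closed held 10 peaks over 16504 bp at chr1:14414722-14431225, none with a fold enrichment above 1.71, and a single control peak overlapped this stretch. Runs of 9 closed peaks lay at chr10:22339372-22356222, without a control peak, and at chr1:338417-359356, with 1. The longest run of new peaks held 7 peaks over 17879 bp at chr3:21516159-21534037, a stretch with 5 control peaks. Runs of 5 new peaks lay at chr11:12555237-12562559 and chr4:11693990-11715430, each with 3 control peaks. Of all closed and new peaks, 13.4% and 62.7% had a control peak. Runs of 5 or more peaks numbered 59 for closed and 3 for new peaks.

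Persisting peaks changed little in width for the most part, with a longer tail of narrowing than of widening. In 84725 pairs, a 12 h and a 24 h peak overlapped each other and no further peak. The median width of these peaks was 745 bp at 12 h and 685 bp at 24 h. The ratio of 24 h to 12 h width had a median of 0.984 and quartiles of 0.853 and 1.06. A share of 56.0% of the pairs were narrower at 24 h, 43.5% were wider and 0.517% were equal. Pairs at least 20% narrower made up 20.4% (17294), with an interval from 20.1% to 20.7%, whereas pairs at least 1.25 times as wide, the same step in the other direction, made up 9.99% (8462), with an interval from 9.79% to 10.2%. At 24 h 5348 peaks had kept less than 50% of their width, and 1941 were more than 2 times as wide.

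**Figure D3:**
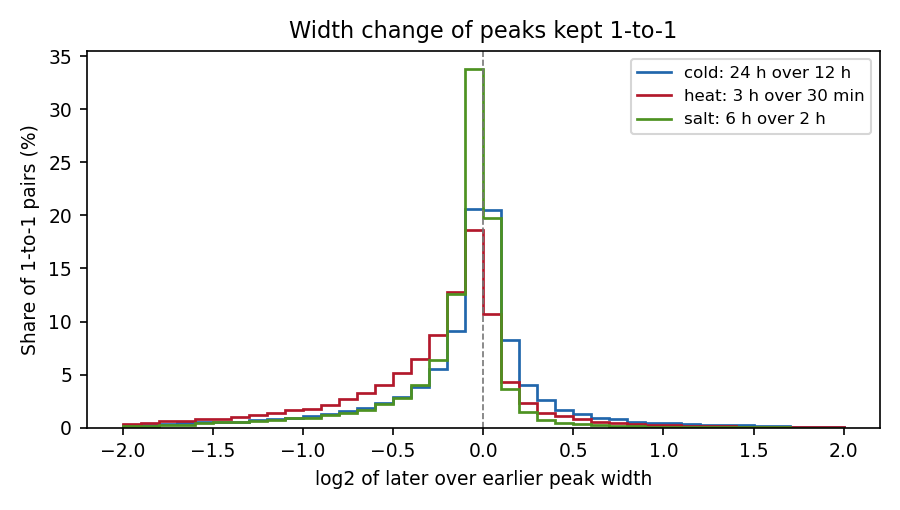
Distribution of the log2 ratio of later to earlier peak width for peaks kept 1-to-1, in percent of pairs per bin of 0.1, for the cold (84725 pairs), heat (75125) and salt (79034) time courses. The cold distribution has its median at a ratio of 0.984 and holds the largest share of the 3 with a ratio of at least 1.25, 9.99%, while 1.02% of its pairs lie outside the plotted range.

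The narrowing was mostly at 1 edge. Both edges stayed within 50 bp of their 12 h position in 43.1% of the pairs. Of the 21483 pairs that were at least 100 bp narrower, 71.4% had an edge within 50 bp of its 12 h position and lost length at the other, and 20.8% were drawn in by more than 50 bp at both. Of the 10590 pairs at least 100 bp wider, 72.1% had also kept an edge. The median move of the centre was 30 bp. Left and right edges moved alike, with medians of 2 and -2 bp (positive to the right).

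The tilt towards narrowing across sizes depended on which width defined the classes. Grouped by the 12 h width, pairs of 200 to under 300 bp had a median ratio of 1.09 and 33.6% of them were narrower, and those from 300 bp had a median ratio of 1.01, with 48.5% narrower. Grouped by the 24 h width, the median ratio from 200 bp was 0.831, with 75.6% narrower. Grouped by the mean of both widths, the median ratio was between 0.982 and 0.990 in the 5 width classes. The share of narrower pairs was 53.4% for means of 200 to under 300 bp, 52.7% from 300 bp, 55.3% from 500 bp, 59.5% from 1000 bp and 62.0% from 2000 bp. The share that was at least 20% narrower was highest, 24.9%, from 300 bp and lowest, 8.32%, from 2000 bp. Chromosomes differed little here. Between 55.3% of the pairs on chromosome 12 and 56.5% on chromosome 1 were narrower, and the median ratio stayed between 0.982 and 0.986 on all 12. Pairs at least 20% narrower ran from 19.3% on chromosome 4 to 22.3% on chromosome 11.

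The largest decrease of width was at chr12:19715827-19719232, in the window with the highest closed share. This 12 h peak of 3406 bp was followed by a 24 h peak of 555 bp at its right end, while the control peak there was 1263 bp wide. A peak of 4509 bp at chr12:26712058-26716566 became one of 1716 bp, with 1453 bp in the control. At chr3:12704270-12707438 the width went from 3169 to 382 bp, with 291 bp in the control. At chr8:11960920-11963864 it went from 2945 to 237 bp, where the control had no peak. The fifth, at chr9:6672123-6676078, went from 3956 to 1263 bp. Each of these 5 peaks ranked higher by fold enrichment at 24 h than at 12 h. They were picked by their loss of width, and the part of this loss in the higher ranks was not tested.

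The largest increases were smaller, and some of them lay on chromosome 10. Of all pairs on chromosome 10, 10.1% were at least 1.25 times as wide, against 9.99% genome-wide. A 12 h peak of 314 bp at chr10:6619454-6619767 lay within a 24 h peak of 2419 bp, and the control peak there had 226 bp. On the same chromosome, widths went from 895 to 2794 bp at chr10:17094959-17095853 and from 455 to 2148 bp at chr10:17278125-17278579. The others were chr11:13253887-13254537, which went from 651 to 2478 bp against 2532 bp in the control, and chr1:29224260-29224597, which went from 338 to 2028 bp.

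Some persisting peaks were split or joined. At 12 h, 3829 peaks (3.48%) overlapped 2 or more 24 h peaks. They were wide, with a median of 2046 bp, and the 24 h peaks covered a median of 65.8% of them. At 24 h, 2647 peaks (2.59%) overlapped 2 or more 12 h peaks. Their median width was 1875 bp, of which the 12 h peaks covered a median of 69.2%. Splitting was therefore the more frequent, by 3829 against 2647 peaks.

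Both closed peaks and narrower pairs took part in the fall of covered length. Covered length decreased by 10.9 Mb, or by 11.3%. Closed peaks had held 6.92 Mb, and new peaks added 2.50 Mb. Pairs that narrowed decreased by 9.37 Mb in all, and pairs that widened gained 4.23 Mb, so that the 1-to-1 pairs together decreased by 5.15 Mb. Split and joined peaks decreased by 1.32 Mb. Bases covered at both times came to 75.7 Mb. Every chromosome lost covered length. The loss was smallest on chromosome 4, which decreased by 9.85%, and largest on chromosome 12, which decreased by 14.1%, followed by chromosome 11, which decreased by 13.3%. With equal numbers of peaks in both lists, the genome-wide length decreased by 6.89 Mb.

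**Figure D4:**
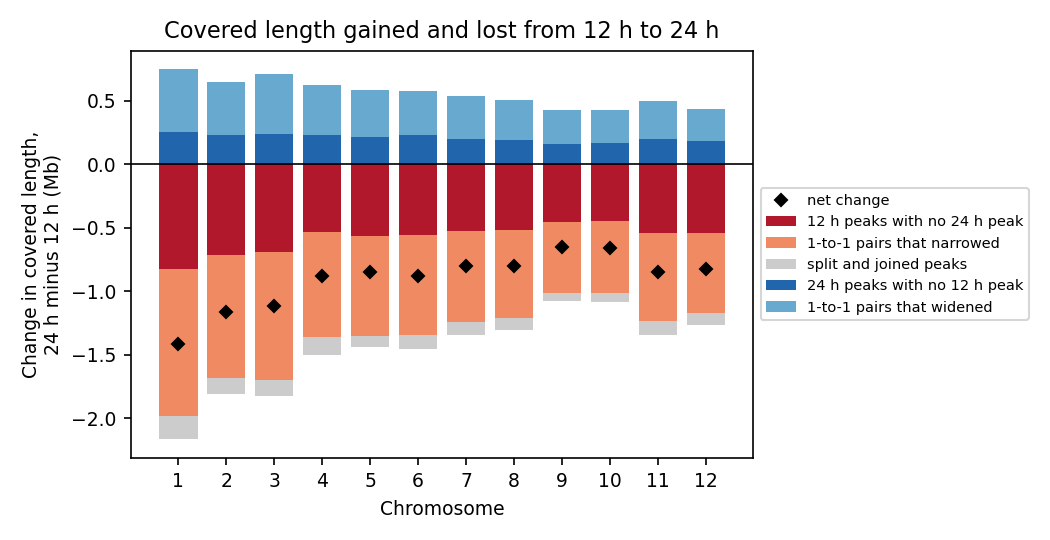
Covered length gained (above 0) and lost (below 0) from 12 h to 24 h on each of the 12 chromosomes, in Mb, split into closed peaks, new peaks, 1-to-1 pairs that narrowed or widened, and split or joined peaks, with the net change as a diamond. The net change was below 0 on every chromosome, from -0.653 Mb on chromosome 9 to -1.42 Mb on chromosome 1.

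The order of the peaks by strength was largely kept. Of the 10484 pairs in the top 10% of the 12 h list, 63.0% were in the top 10% of the 24 h list and 90 were in its lower 50%. Of the 9575 pairs in the top 10% at 24 h, 69.0% had been in the top 10% at 12 h and 25 in its lower 50%. The change in percentile had quartiles of -11.4 and 7.12 percentage points. The largest falls were from percentile 88.8 to 6.91 at chr5:2297457-2297936, from 91.6 to 10.1 at chr8:16030655-16031591 and from 88.8 to 7.32 at chr12:13372822-13373158. Similar falls were seen at chr7:4172599-4173092 and chr12:13403556-13403927. The largest rises were from percentile 9.33 to 84.6 at chr8:3532597-3533636, from 9.27 to 80.0 at chr4:20852475-20853560 and from 13.2 to 83.8 at chr9:20037138-20037452, followed by chr10:18580353-18580660 and chr12:25287233-25287729. All 5 rising pairs had a control peak, and 2 of the 5 falling pairs had none. Of all persisting peaks, 94.5% at 12 h and 94.1% at 24 h had a control peak, so 5 of 5 does not set the rising pairs apart. The part of changes of width in these changes of rank was not tested.

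The peaks that changed between 12 h and 24 h differed in whether unstressed seedlings had them. Of the closed peaks, 13.4% overlapped a control peak, with an interval from 12.9% to 14.0%. Of the persisting 12 h peaks 94.5% did so. Of the new peaks, 62.7% overlapped a control peak, with an interval from 61.5% to 63.8%. Of the persisting 24 h peaks 94.1% did so. The closed peaks were thus mostly sites without a control call. The new peaks were mostly sites with one, though less often than the persisting 24 h peaks. By chromosome, the share of closed peaks with a control peak ran from 11.7% on chromosome 2 to 15.2% on chromosome 5, and that of new peaks from 59.3% on chromosome 7 to 65.7% on chromosome 10, so that the ranges did not meet.

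The control, 12 h and 24 h lists were also merged into 116137 regions, which counts the same peaks in another way. A peak was present in all 3 lists in 84964 of them (73.2%), and these had a median width of 947 bp. The most frequent other pattern was a peak at 12 h only, in 14129 regions (12.2%). Peaks at 12 h and 24 h but not in the control were found in 4868 regions, and peaks at 24 h only in 2710. A peak of the control was missing at 12 h and present again at 24 h in 4269 regions, missing at both times in 3162, and present at 12 h but not at 24 h in 2035. Of the 18997 regions that had a 12 h peak and no control peak, 74.4% had no 24 h peak, from 71.7% on chromosome 1 to 78.2% on chromosome 12. Of the 7431 control regions missing at 12 h, 57.4% had a peak at 24 h, from 53.9% on chromosome 7 to 62.0% on chromosome 6. For comparison, of the regions with both a control and a 12 h peak, 84964 had a 24 h peak and 2035 had none. With equal numbers of peaks in the 3 lists, the regions missing only at 12 h numbered 7135 and those of the control only 4912.

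Widths followed the same course. In 75821 cases, 1 peak each of control, 12 h and 24 h matched 1-to-1, with median widths of 692, 763 and 709 bp. In 22.7% of them the 12 h peak was at least 1.25 times as wide as in the control. These had median widths of 451 bp in the control, 910 bp at 12 h and 568 bp at 24 h, and their median ratio to the control width went from 1.64 to 1.09. In 10.8% the 12 h peak had at most 0.8 times the control width, and the median ratio went from 0.658 to 0.916. The remaining 66.4% had a median ratio of 0.999 at 12 h and 0.998 at 24 h. The 12 h and control widths defined these classes, so these values are a description of the classes only.

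**Figure D5:**
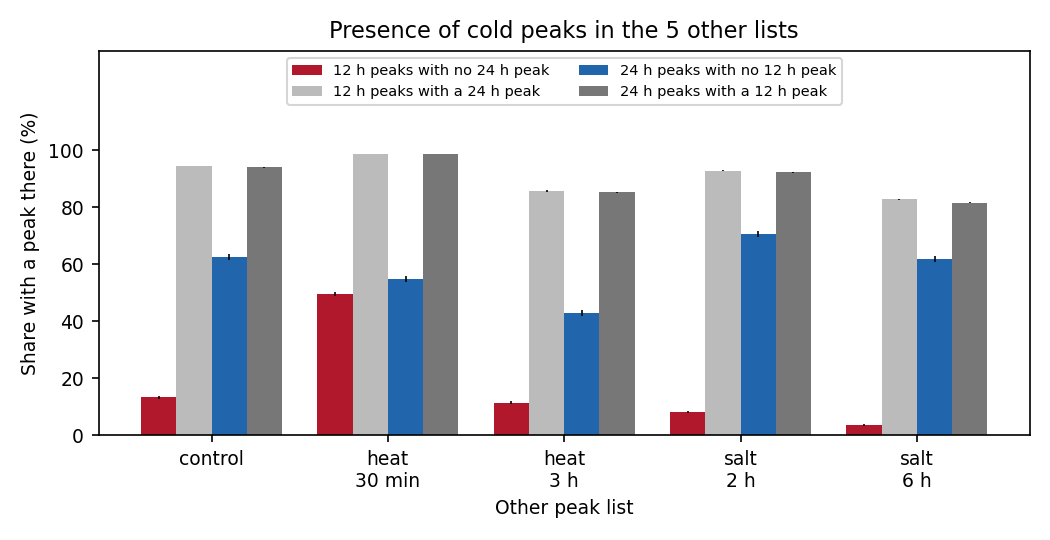
Share of closed, new and persisting cold peaks that overlap a peak of each of the 5 other lists, in percent from 0 to 100, with 95% Wilson intervals. Closed peaks (red) had a control peak in 13.4% and a heat 30 min peak in 49.6%. New peaks (blue) had a salt 2 h peak in 70.6%, against 92.4% of the persisting 24 h peaks.

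Closed and new peaks also differed in the heat and salt lists. Of the closed peaks, 49.6% had a partner in the list of heat 30 min, 11.4% in that of heat 3 h, 8.27% in that of salt 2 h and 3.70% in that of salt 6 h. For the new peaks these shares were 54.8%, 42.9%, 70.6% and 61.9%. Persisting peaks had higher shares in each list, with 98.8%, 85.8%, 93.0% and 82.8% at 12 h. At 24 h they had 98.8%, 85.3%, 92.4% and 81.7%. A share of 45.6% of the closed peaks (7443) had no partner in any of the 5 other lists, against 6.13% of the new peaks (445). Among persisting peaks this was 0.234% at 12 h and 0.245% at 24 h. The heat 30 min list was the longest of the 5, with 108147 peaks, against 99518 in the control and 97058 in salt 2 h. The part of list length in these shares was not tested.

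The other stresses were set beside the cold with the same rules. From heat 30 min to heat 3 h, 23.8% of the peaks closed and 4.80% were new. From salt 2 h to salt 6 h, 14.5% closed and 2.70% were new. The cold course had the highest new share of the 3. It also had the lowest ratio of closed to new peaks, 2.25 against 5.89 for heat and 5.95 for salt. With 87437 peaks in every list, these ratios were 1.12 for cold, 1.29 for heat and 1.27 for salt. Lists of equal length hold such ratios near 1 by construction. The new share of the cold was then 11.6%, between that of salt, 9.04%, and that of heat, 14.7%. The median width ratio was 0.898 for heat and 0.964 for salt, and pairs at least 1.25 times as wide made up 6.00% and 2.59%, below the 9.99% of the cold. The share of closed peaks with a control peak was 53.5% for heat and 83.0% for salt, above the 13.4% of the cold, and that of new peaks with a control peak was 35.1% and 29.3%, below the 62.7% of the cold. The times differ between the stresses, no value has a replicate check, and these differences were not tested.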

How the data were processed

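FAIRE-seq was performed on 2 replicates per condition. Following the paper's methods, Bowtie2 was used by the authors for alignment to IRGSP 1.0. Reads of low mapping score, duplicates and reads from nuclear insertions of organelle DNA were discarded, and MACS2 called broad peaks. The deposited lists give for each peak its position, a score (not used), the fold enrichment as a ratio, and the −log10 p (not used) and −log10 q. Tool versions and any pooling of replicates are not given in the sources used here. Missing calls near the q limit and the length of the lists can change the shares. The methods also describe the removal of peaks under 1 RPM in any replicate, and whether the deposited lists were filtered in this way is not given in the sources used here.

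Peaks were matched with Python 3.11.15, numpy 2.4.6, pandas 2.3.3 and scipy 1.17.1. Counts of unmatched peaks and shared bases were equal with bedtools 2.31.1, and 12 known quantities were recovered on 5000 simulated peak positions. Positions are 1-based. Regions were named by a rule: the 5 strongest closed and new peaks, the 5 pairs with the largest change of width or rank in each direction, the 3 longest runs and the 3 extreme windows of 1 Mb. Members and lists were chosen with earlier results of these data known. Alternatives were a −log10 q of at least 2, equal numbers of peaks, the 20000 strongest peaks, joining of near peaks, 50% overlap and stricter limits for narrowing. RNA-seq libraries were not analysed here.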

Additional observations from a re-analysis of the deposited data

How the results depend on the processing

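A share or median was taken as changed when it fell outside its 95% interval, and lengths and counts when they moved by more than 1.5 times. Of 61 alternative genome-wide values, 31 stayed the same by this rule and 30 changed. A reversal of direction was defined for covered length only, which decreased in every setting where it was computed. The closed share stayed above the new share in every setting. Equal list lengths hold the closed and new shares close by construction, so those settings do not test the gap between them. By chromosome, new peaks outnumbered closed peaks on 2 of 12 chromosomes with equal numbers of peaks (3 and 4) and on 4 among the 20000 strongest (1, 2, 3 and 12). In the order closed share and new share, the values were 13.2% and 7.96% with a −log10 q of at least 2, 12.3% and 10.7% with equal numbers of peaks, 28.8% and 28.7% among the 20000 strongest peaks and 21.3% and 9.96% with at least 50% of a peak covered. They were 9.61% and 5.33% when peaks less than 1000 bp apart were joined, an alternative chosen after seeing the data. With cut lists, closed and new mean without a partner in the other cut list, though the full list can hold one. Against the full lists, 14 of 11001 peaks (0.127%) in the strongest class at 12 h closed, and 0 of 10221 at 24 h were new. Joining below 200 bp changed nothing, since peaks of a list are at least 401 bp apart. The share of narrower pairs was 56.7% among the strongest peaks and 58.9% with joining below 1000 bp, and by construction 20.4% with a limit of 20% and 25.4% with a limit of 100 bp. The median width ratio was 0.987 among the strongest peaks. Covered length decreased by 6.89 Mb with equal numbers of peaks, and decreased by 1.39 Mb among the strongest.

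The share of closed peaks with a control peak was 15.4% with the stricter q, 23.5% among the strongest and 12.4% with 50% overlap. For new peaks it was 68.7% with equal numbers and 61.0% with joining below 1000 bp. With equal numbers in the 3 lists, 4912 regions were in the control only and 7135 in the control and at 24 h, while 12 of the 14 alternative counts of regions stayed within 1.5 times. With 87437 peaks in all 7 lists, the earlier and later shares were 12.9% and 11.6% for cold, 19.0% and 14.7% for heat and 11.5% and 9.04% for salt. These alternatives were also chosen after seeing the data, except those for regions. The cause of the changes was not tested. No paired analysis was possible because each condition was deposited as 1 list for both replicates, and no replicate could be left out for the same reason. Depth, which was not used here, limits how far a missing peak can be read as closed chromatin.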
